A study of Mus musculus with 6 samples.

Results

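The genes described here encode the nuclear subunits of oxidative phosphorylation, the process by which mitochondria turn the oxidation of NADH and succinate into ATP. They were chosen by gene name from the deposited count table, as names beginning with Nduf followed by a, b, c, s or v and a number, with Uqcr, with Cox4 to Cox8 or with Atp5, together with Sdha, Sdhb, Sdhc and Sdhd. The table holds 43346 genes, of which 87 had such a name, and leaving out the 3 names marked as pseudogenes (-ps) left 84 genes, all of them annotated as protein-coding in GENCODE M21. RNA-seq had been made from limb bones of C57BL/6 mouse pups 1 day after birth, in 3 wild type (WT) libraries and 3 Hdac3 CKO libraries. CKO is read here as conditional knockout of Hdac3, a histone deacetylase, and the series' design text ties it to Prx1. Prx1-driven Cre acts in limb bud mesenchyme, the source of bone, cartilage and tendon cells, while muscle fibres and blood cells arise from other lineages and would keep the gene. The labels name neither a floxed allele nor a Cre line in either genotype. Nothing in them ties a library to 1 animal, so the p-values reflect how these libraries vary, and that variation may be technical alone. The comparison asked whether subunit expression differed between the genotypes, complex by complex, and how the muscle RNA of each library stood beside it.

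Complex I oxidises NADH, complex II oxidises succinate, complex III passes electrons to cytochrome c, complex IV (cytochrome c oxidase) passes them to oxygen, and complex V (ATP synthase) uses the resulting proton gradient to make ATP. Most subunits are encoded in the nucleus and a few in the mitochondrial genome. Several subunits of complex IV exist in a form found in most tissues and a form made mainly in heart and skeletal muscle, and striated muscle is rich in mitochondria, as are osteoclasts.

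The total count ranged from 43389262 to 50927978 per library. Hdac3 itself measured between 47.4 and 50.3 CPM in wild type pups and between 28.3 and 31.8 CPM in Hdac3 CKO, with no overlap. CPM here is the count scaled to library size and to a TMM factor, which evens out differences in library composition. The 10 osteoblast markers were all detected and summed to between 46148 and 61469 CPM per wild type library and to 101337, 85942 and 71006 CPM in Hdac3 CKO replicates 1, 2 and 3. By gene they went both ways, with log2 fold changes above 0 for 7 and below 0 for 3. Those below 0 were Runx2 at -0.44, Bglap2 at -0.42 and Bglap at -0.23. The sum of 8 neutrophil markers was between 84.0 and 253 CPM in the former and between 19.1 and 28.2 in the latter. Cartilage markers, 10 in all, were highest in replicate 3 of each genotype. They summed to 2570, 2377 and 8798 CPM in wild type and to 3094, 2824 and 17288 CPM in Hdac3 CKO. Their part in the subunit values was not tested. The library Hdac3 CKO replicate 1 stood apart in the subunit genes, so the named subunit genes and the lists of pathway genes are given with and without it. The 37 genes of the mitochondrial genome, 13 of them for proteins, were listed at 0 in all 6 libraries. The subunits encoded in mitochondria were therefore not analysed here.

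The promoters of 5 subunit genes show the kinds of sequence that this group of genes carries: Uqcr11 as a subunit found in most tissues with one of the largest fold changes, Cox6a1 and Cox8a as general forms of complex IV subunits, Cox8b as the muscle form that pairs with Cox8a, and Cox6b2 as the subunit gene with the smallest p. Sequences are from RefSeq on GRCm38.p6, the assembly also called mm10, and run 5′ to 3′ on the gene's own strand, from 130 bases before the annotated transcript start to 20 bases after it. All 5 genes lie on the minus strand. Capitals mark matches on either strand to 1 of 6 motifs. The motif searched for NRF1 was GCNTGCGC, that for ETS factors was CCGGAAG and that for YY1 was AAGATGGCG. The E-box searched was CAGCTG. The motif for a TATA box was TATAAA, and the last motif was CCAAT.
Uqcr11, chr10:80406802-80406951: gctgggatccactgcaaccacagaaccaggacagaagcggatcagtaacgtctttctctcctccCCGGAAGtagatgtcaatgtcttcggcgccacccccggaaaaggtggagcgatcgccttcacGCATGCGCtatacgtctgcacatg
Cox6a1, chr5:115348939-115349088: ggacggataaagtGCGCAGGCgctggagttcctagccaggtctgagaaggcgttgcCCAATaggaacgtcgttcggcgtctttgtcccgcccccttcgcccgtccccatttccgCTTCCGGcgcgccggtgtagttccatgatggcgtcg
Cox8a, chr19:7217597-7217746: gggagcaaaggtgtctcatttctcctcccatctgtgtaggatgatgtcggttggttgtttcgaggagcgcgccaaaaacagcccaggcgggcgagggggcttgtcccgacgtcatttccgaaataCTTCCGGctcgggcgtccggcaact
Cox8b, chr7:140900427-140900576: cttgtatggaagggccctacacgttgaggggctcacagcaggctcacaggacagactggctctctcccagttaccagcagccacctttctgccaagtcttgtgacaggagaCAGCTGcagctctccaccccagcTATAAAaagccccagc
Cox6b2, chr7:4753075-4753224: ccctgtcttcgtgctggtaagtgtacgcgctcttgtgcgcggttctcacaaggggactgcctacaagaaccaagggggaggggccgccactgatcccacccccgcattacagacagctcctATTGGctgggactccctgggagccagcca

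In these windows Uqcr11 holds an ETS-type match at -66 to -60 and an NRF1-type match at -4 to 4, counted from the transcript start with no position 0. Cox6a1 holds an NRF1-type match at -117 to -110 and an ETS-type match at -16 to -10, and Cox8a an ETS-type match at -5 to 2. Cox8b, the muscle form, holds an E-box at -19 to -14 and a TATA motif at 5 to 10, and neither of the NRF1-type and ETS-type motifs. Cox6b2 holds a CCAAT match at -9 to -5 and none of the other motifs. NRF1, ETS factors of the GABP kind and YY1 are known regulators of nuclear genes for mitochondria, and the E-box is bound by muscle factors such as MyoD among many others. RefSeq windows of 300 bases were found for 69 of the 84 genes, 75 windows in all. The NRF1-type motif was in 33.3% of these windows and in 9.95% of all 32851 windows in the table, the ETS-type motif in 21.3% and 8.86%, and the YY1-type motif in 12% and 1.4%. The E-box was in 8% of the subunit windows and 16.3% of all windows, the TATA motif in 10.7% and 13.6%, and CCAAT in 42.7% and 37.4%. Neighbouring NRF1-type matches can overlap, as they do further upstream in Cox6a1. The median log2 fold change between the genotypes was 0.33 over 23 tested subunit genes with the NRF1-type motif and 0.27 over 45 without it, and 0.34 over 15 with the ETS-type motif and 0.27 over 53 without it. For YY1 it was 0.26 over 7 genes with the motif and 0.29 over 61 without it. With and without the E-box it was 0.32 over 6 genes and 0.27 over 62. With and without TATA it was 0.40 over 6 genes and 0.27 over 62, and for CCAAT 0.25 over 30 and 0.29 over 38. These differences went both ways and were not tested. A match is a match of letters and not evidence of binding.

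Of the 84 subunit genes 82 passed the filter on low counts and were tested. None of the 82 reached an adjusted p under 0.05 by the quasi-likelihood test of edgeR, with p adjusted by Benjamini-Hochberg over 20210 genes, so 0 rose, 0 fell and 82 did not pass. Of all tested genes 1.18% passed, 0.703% on the higher and 0.475% on the lower side. At an unadjusted p under 0.05 there were 14 subunit genes on the higher side in Hdac3 CKO and 3 on the lower side, where all tested genes gave 7.79% and 7.2%. DESeq2 called 1 subunit gene, Cox6b2, lower, where it called 1.86% of all genes lower, and limma-voom called 0, where it called 0.871% of all genes. Cox6b2 was the 1 subunit gene called lower with library totals, where 0.594% of all genes were, with no filter on low counts (0.434%) and in limma on log2(RPKM + 1) (0.411%) or log2(RPKM + 0.1) (0.5%). GC and length offsets called it and Ndufa4l2 lower, beside 0.861% of all genes. No subunit gene passed with RLE factors, upper quartile factors, a mean of at least 1 CPM or the legacy dispersion of edgeR, where 1.22%, 1.11%, 1.13% and 1.12% of all genes passed, nor with the muscle covariate described further on, where 0.099% did. Leaving out wild type replicate 1, 2 or 3 gave 0 subunit genes beside 0.112%, 0.17% and 0.51% of all genes, and leaving out Hdac3 CKO replicate 1, 2 or 3 gave 0 beside 0.843%, 0.784% and 0.223%.

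The fitted log2 fold changes lay almost all on one side of 0: they were above 0 for 77 and below 0 for 5 of the 82, beside 50.1% of all tested genes above 0. Their median was 0.28 with quartiles of 0.21 and 0.38, while the median of all tested genes was 0.00098. Values of 23 subunit genes were higher in every Hdac3 CKO library than in every wild type library, and those of 3 were lower, where all tested genes gave 11.5% and 10.9%. The 5 genes below 0 were Cox6b2, Ndufa4l2, Ndufv3, Atp5s and Ndufs1. Ndufs1, at -0.00088, or -0.031 without Hdac3 CKO replicate 1, is named for its value alone.

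**Figure D1:**
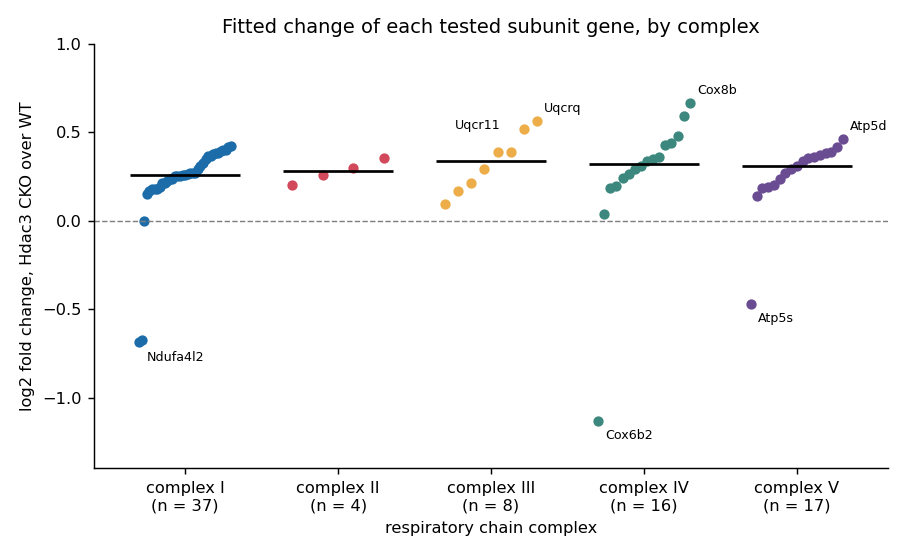
Each point is the fitted log2 fold change (Hdac3 CKO over WT, vertical axis) of 1 tested subunit gene, sorted within its complex (horizontal axis), and each black line is the median of the complex. All 5 medians lie between 0.26 and 0.34, and Cox6b2, Ndufa4l2, Ndufv3 and Atp5s stand well below the others.

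Genes were assigned to a complex by name alone, with Nduf as I, Sdh as II, Uqcr as III, Cox as IV and Atp5 as V. A name can thus place a gene in a complex of which it is not a fixed part, as with Ndufa4 and Atp5s, described below. By complex, the median log2 fold change was 0.26 over 37 genes of complex I, 0.28 over 4 of complex II, 0.34 over 8 of complex III, 0.32 over 16 of complex IV and 0.31 over 17 of complex V. At an unadjusted p under 0.05, reached on the higher side by 7.79% and on the lower by 7.2% of all tested genes, the higher and lower counts were 7 and 1 in complex I, 0 and 0 in II, 3 and 0 in III, 3 and 1 in IV and 1 and 1 in V. Values did not overlap between the genotypes on the higher side for 11 of 37, 1 of 4, 3 of 8, 6 of 16 and 2 of 17 genes of complexes I to V, beside 11.5% of all tested genes. On the lower side this held for 1 gene each of I, IV and V, beside 10.9% of all tested genes. These were Ndufa4l2, Cox6b2 and Atp5s, which were also the genes on the lower side at an unadjusted p under 0.05. The counts of complex V were near these shares. The 7 core subunits of complex I that are encoded in the nucleus had a median of 0.38, and the other 30 Nduf genes one of 0.26. The difference between complexes was not tested.

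Much of this shift came with a single library. Hdac3 CKO replicate 1 was the highest of the 6 libraries for 76 of the 82 subunit genes, as it was for 30.3% of all tested genes. Expressed as the median deviation of the subunit genes from their own mean over the 6 libraries, on the log2 CPM scale, it stood at 0.48, while Hdac3 CKO replicates 2 and 3 stood at -0.076 and -0.018 and wild type replicates 1, 2 and 3 at -0.22, -0.11 and -0.089. Hdac3 CKO replicates 2 and 3 thus stood above all wild type libraries, and the gap between replicate 2 and the nearest wild type library was smaller than the spread among the wild type libraries. Without Hdac3 CKO replicate 1 the median of the 82 genes was 0.077, with 66 above 0 and 16 below. The summed level of complex I was 2273, 2303 and 2310 CPM in wild type and 3371, 2306 and 2440 in Hdac3 CKO, and that of complex V was 3521, 4079 and 3885 CPM against 6129, 4045 and 4146. In both sums Hdac3 CKO replicate 1 stood far above the other 5 libraries, which lay close together. By complex the median without that library was 0.043 for I, 0.083 for II, 0.11 for III, 0.10 for IV and 0.076 for V.

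**Figure D2:**
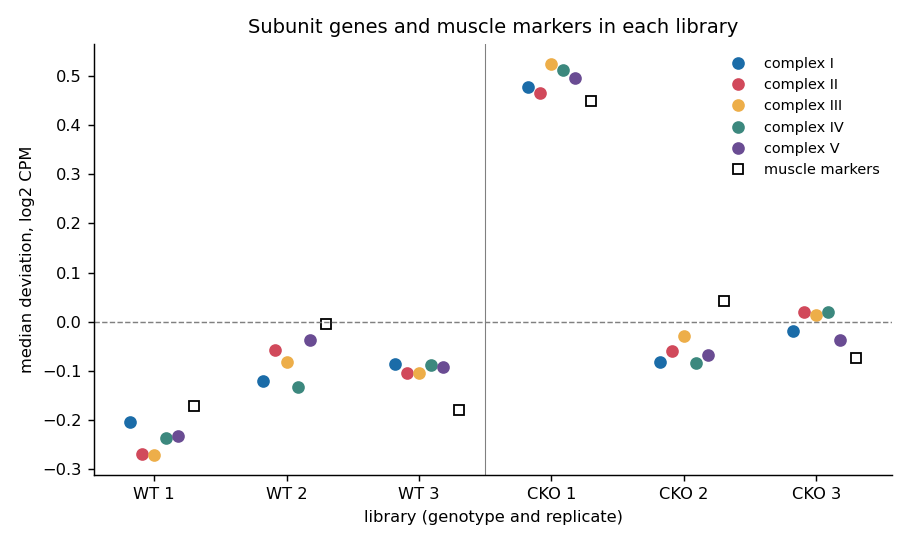
Filled points are the median deviation of the genes of each complex from their own mean over 6 libraries (vertical axis, log2 CPM) in each library (horizontal axis, CKO for Hdac3 CKO), and open squares are the same for 24 muscle markers. Hdac3 CKO replicate 1 stands at 0.47 to 0.53 for the complexes and at 0.45 for muscle markers, while the other libraries lie between -0.27 and 0.042.

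The muscle share differed between libraries and was highest in the same library, although the labels say that soft tissue was cleaned from the bones. The 24 sarcomere and other muscle fibre markers, all of them detected, took 4.62%, 5.61% and 4.72% of all counts in wild type and 6.29%, 5.02% and 4.64% in Hdac3 CKO. The means were 4.98% ± 0.54 (SD, n = 3) and 5.32% ± 0.86 (SD, n = 3), with p = 0.6 by an exact permutation test (two-sided), in which 3 libraries against 3 allow no p under 0.1. Acta1 was the most abundant of these markers. Without it the shares were 3.76%, 4.50% and 3.75% in wild type and 4.69%, 4.08% and 3.69% in Hdac3 CKO. Of the 24 markers, 15 were highest in Hdac3 CKO replicate 1, while Ttn, Neb and Myh4 were lowest there, at 3023, 1165.5 and 77.6 CPM. In edgeR 0 of the 24 rose or fell, and 1 was at an unadjusted p under 0.05. That marker, named for its value, was desmin (Des), the muscle intermediate filament, at 0.53 ± 0.22 (log2 fold change and SE), or 0.24 without Hdac3 CKO replicate 1. The 24 markers had a median of 0.29, or 0.086 without that library. Their summed level ran from 44216 to 51550 CPM across wild type libraries and from 48681 to 71456 across Hdac3 CKO libraries. With the mean log2 CPM of the muscle markers as a covariate, the median of the 82 subunit genes was 0.020, with 47 above 0 and 35 below, and that of complex V was -0.0043. In whole bone, more cells of a type and more RNA per cell cannot be told apart. Wild type replicate 2 had the next highest muscle share, at 5.61%, and the next highest share of counts in the subunit genes, at 1.01%. On the scale of median deviations its subunit genes stood at -0.11 and its muscle markers at -0.0042. The covariate itself was highest in Hdac3 CKO replicate 1, at 10.34, against 9.84 to 10.06 in the other libraries. Its fit therefore cannot separate muscle from any other difference of that library. The part of muscle in the subunit values was not tested. The summed osteoblast markers were also highest in Hdac3 CKO replicate 1, at 8.92% of counts. They took 8.43% and 6.77% in Hdac3 CKO replicates 2 and 3 and 4.82% to 6.55% in wild type. Col1a1 and Col1a2 made up most of that sum, at 55679.5 and 39868 CPM in Hdac3 CKO replicate 1. By gene, 5 of the 10 markers were highest in that library. Ibsp and Spp1 were instead highest in Hdac3 CKO replicate 2, at 3213 and 4943 CPM. The part of the osteoblast markers in the subunit values was not tested.

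Osteoclast markers, from another cell type rich in mitochondria, summed to between 1436 and 2572 CPM per wild type library and between 2568 and 3322 per Hdac3 CKO library, and 1 of 10 was highest in Hdac3 CKO replicate 1. The 3 brown fat markers summed to at most 13.0 CPM in any library. Ucp1, the uncoupling protein of brown fat and named for its value, rose from a mean of 0.731 to one of 4.49 CPM, with an adjusted p of 0.021 in edgeR. Cidea, the most abundant of the 3, was at 0.28 ± 0.24 (log2 fold change and SE) with overlapping groups and did not pass. Elovl3 had too few counts to be tested. Without Hdac3 CKO replicate 1 Ucp1 was at 2.31 and Cidea at 0.10, against 2.62 for Ucp1 with all libraries. The part of these cell types in the subunit values was not tested.

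Scaling also bore on the level. As a plain share of all counts, the 84 genes took 0.878%, 1.01% and 0.968% in wild type and 1.21%, 0.913% and 0.924% in Hdac3 CKO, so that Hdac3 CKO replicates 2 and 3 were within the wild type range. TMM factors were 1.05 to 1.09 in wild type and 0.880 to 0.981 in Hdac3 CKO. With library totals in place of TMM all tested genes had a median of -0.18, and that of the subunit genes was 0.085, with 64 above 0 and 18 below. The change of scaling moves all genes by about the same amount.

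**Figure D3:**
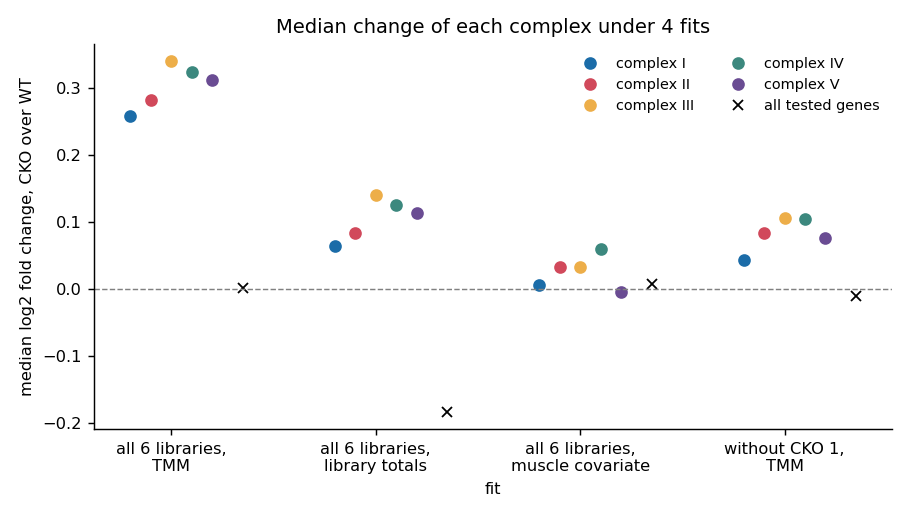
Points are the median log2 fold change (Hdac3 CKO over WT, vertical axis) of each complex, and crosses that of all tested genes, in 4 fits (horizontal axis). The medians of 0.26 to 0.34 with all libraries and TMM were 0.043 to 0.11 without Hdac3 CKO replicate 1 and -0.0043 to 0.060 with the muscle covariate, and with library totals all tested genes stood at -0.18.

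In complex I the nuclear core subunits carry the flavin and the iron-sulfur clusters. Ndufa7, an accessory subunit, measured 32.9, 31.1 and 36.2 CPM in wild type and 54.2, 37.7 and 40.5 CPM in Hdac3 CKO, without overlap, at 0.40 ± 0.16 (log2 fold change and SE), or 0.22 without Hdac3 CKO replicate 1.

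Ndufa4, first described as a complex I protein and now known as a partner of cytochrome c oxidase, had the highest level per length among the Nduf genes, with a mean of 198 RPKM over the 6 libraries. RPKM are read counts scaled to gene length and library size, as the authors deposited them. Its wild type values were 102, 106 and 117 CPM, against 173, 121.3 and 124 CPM in Hdac3 CKO, with a log2 fold change of 0.36 ± 0.16, or 0.17 without Hdac3 CKO replicate 1. Its paralogue Ndufa4l2 (chromosome 10, 127514939 to 127517152), a hypoxia-induced gene known to lower complex I activity, lay on the other side of 0. It measured 61.1, 53.7 and 62.5 CPM in wild type and 44.4, 24.2 and 41.4 CPM in Hdac3 CKO. The groups did not overlap, and the log2 fold change was -0.69 ± 0.21 with an adjusted p of 0.17 in edgeR. Among the Hdac3 CKO libraries replicate 1 was the highest for Ndufa4l2 too, and without it the value was -0.86. The paralogues had mean levels of 198 and 39.9 RPKM.

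Ndufv3 (chromosome 17, 31520115 to 31531326), an accessory subunit beside the NADH site, is named because of its value in 1 library. It reached 194 CPM in wild type replicate 1 and measured 50.3 and 49.4 CPM in replicates 2 and 3, and 77.1, 49.5 and 57.1 CPM in Hdac3 CKO. No other subunit gene had its highest value in wild type replicate 1. The fitted log2 fold change was -0.68 ± 0.57, and without wild type replicate 1 it was 0.30. Leaving out Hdac3 CKO replicate 1 instead gave -0.89.

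Complex II feeds electrons from the citric acid cycle. All 4 of its genes had positive fold changes and none passed. Sdhb, the iron-sulfur subunit, measured 111, 124 and 121.97 CPM in wild type and 193, 131 and 133 CPM in Hdac3 CKO, with no overlap, at 0.36 ± 0.17. Sdha, the flavoprotein, was at 0.20 and the membrane anchors Sdhc and Sdhd were at 0.30 and 0.26. Without Hdac3 CKO replicate 1 the values of Sdha, Sdhb, Sdhc and Sdhd were 0.067, 0.14, 0.098 and 0.068. For Sdhb, Sdhc and Sdhd the gap between Hdac3 CKO replicate 1 and the other Hdac3 CKO libraries was larger than that between those and wild type. Sdhd had the highest level per length of complex II, at 89.5 RPKM.

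Complex III held the subunit gene with the smallest p on the higher side. Uqcrq (chromosome 11, 53427922 to 53430831), a small subunit bound to cytochrome b, measured 56.0, 46.4 and 54.9 CPM in wild type and 96.4, 70.9 and 65.3 CPM in Hdac3 CKO. The means were 52.4 ± 5.3 and 77.5 ± 16.6 (SD, n = 3), and the log2 fold change was 0.57 ± 0.17 with an adjusted p of 0.16 in edgeR. The groups did not overlap, and without Hdac3 CKO replicate 1 the value was 0.37. Uqcr11 (chromosome 10, 80402997 to 80406830), whose promoter is printed above, measured 57.9, 58.1 and 67.9 CPM in wild type and 112, 70.9 and 79.8 CPM in Hdac3 CKO. Its log2 fold change was 0.52 ± 0.18, or 0.29 without Hdac3 CKO replicate 1, and the groups did not overlap. Uqcr10, another small subunit, was at 0.39 ± 0.17, or 0.15 without that library. Uqcr11 had the highest level per length of complex III, at 91.4 RPKM.

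**Figure D4:**
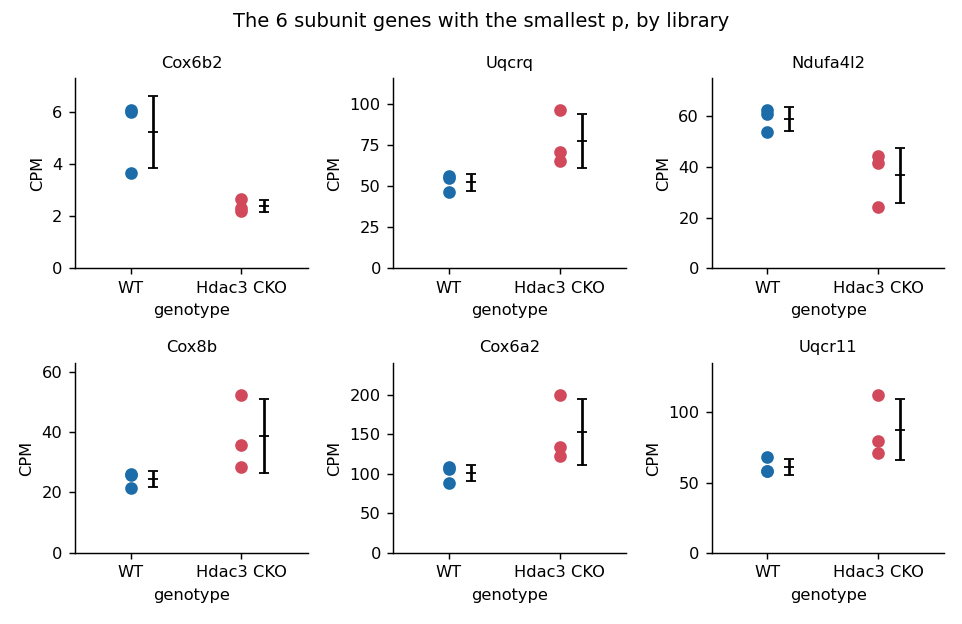
Points are the CPM of each library (vertical axis, from 0) by genotype (horizontal axis) for the 6 subunit genes with the smallest p, and bars are the mean ± SD of 3 libraries. Hdac3 CKO replicate 1 is the highest point in Uqcrq, Cox8b, Cox6a2 and Uqcr11, while Cox6b2 and Ndufa4l2 are lower in all 3 Hdac3 CKO libraries.

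Complex IV has the widest choice of isoforms. Cox6b2 (chromosome 7, 4751792 to 4753094), an isoform known mainly from testis, had the smallest p of all subunit genes. Its level was 6.01, 3.64 and 6.08 CPM in wild type and 2.66, 2.33 and 2.19 CPM in Hdac3 CKO, with means of 5.25 ± 1.39 and 2.39 ± 0.25 (SD, n = 3). The groups did not overlap, and the log2 fold change was -1.13 ± 0.25 with an adjusted p of 0.067 in edgeR. Without Hdac3 CKO replicate 1 it was -1.23. Its direction held in all 18 alternatives tried, at -1.34 to -0.88, and 6 of them called it, among them DESeq2 with an adjusted p of 0.0020. Its general counterpart Cox6b1, the most abundant complex IV gene per length at 216 RPKM, was at 0.34 ± 0.17, with no overlap between wild type (113 to 128 CPM) and Hdac3 CKO (129.6 to 194 CPM). Without Hdac3 CKO replicate 1 Cox6b1 was at 0.12. The testis isoforms Cox7b2 and Cox8c did not pass the filter on low counts. Cox7b2 had 0 counts in every library, and Cox8c had 2 counts in wild type replicate 2, 2 in Hdac3 CKO replicate 2 and 0 elsewhere.

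A pair of muscle isoforms gave the highest fold changes of all subunit genes. Cox8b (chromosome 7, 140898943 to 140900446) measured 25.7, 21.5 and 26.1 CPM in wild type and 52.3, 28.4 and 35.7 CPM in Hdac3 CKO, at 0.67 ± 0.21. Cox6a2 (chromosome 7, 128205436 to 128206366) measured 89.1, 108 and 106 CPM in wild type and 200.3, 123 and 134 CPM in Hdac3 CKO, at 0.59 ± 0.19. Neither gene's groups overlapped, and both had an adjusted p of 0.19 in edgeR, and both were highest in Hdac3 CKO replicate 1, the library with the largest muscle share. Without it Cox8b was at 0.38 and Cox6a2 at 0.34. Cox7a1, the remaining muscle form, was at 0.43 ± 0.19 with overlapping groups. The general forms Cox6a1, Cox8a and Cox7a2 were at 0.48 ± 0.18, 0.36 ± 0.18 and 0.24 ± 0.16. Without Hdac3 CKO replicate 1 Cox7a1 was at 0.17, Cox6a1 at 0.26, Cox8a at 0.16 and Cox7a2 at 0.036, and each muscle form was still above its general form, a difference that was not tested.

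Per length, the muscle form made up 55.3%, 62.9% and 55.6% of the RPKM of Cox6a1 and Cox6a2 together in wild type and 60.6%, 58.0% and 60.4% in Hdac3 CKO. For Cox8b the share of Cox8a and Cox8b was 30.1%, 28.9% and 26.4% in wild type and 34.6%, 28.1% and 34.9% in Hdac3 CKO. For Cox7a1 the share of Cox7a1 and Cox7a2 was 26.3%, 26.2% and 25.04% in wild type and 29.3%, 26.3% and 29.0% in Hdac3 CKO. These shares need no scaling between libraries. The differences of the means were 1.72, 2.35 and 4.07 percentage points for Cox6a2, Cox7a1 and Cox8b, with p = 0.5, 0.2 and 0.3 by two-sided exact permutation tests that allow no p under 0.1. For each pair the ranges of the genotypes overlapped, and the highest Cox6a2 share was that of wild type replicate 2. Slc25a4, the ADP/ATP carrier typical of muscle and heart, took 84.3% to 87.0% of the RPKM of Slc25a4 and Slc25a5 in wild type and 85.1% to 86.5% in Hdac3 CKO.

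**Figure D5:**
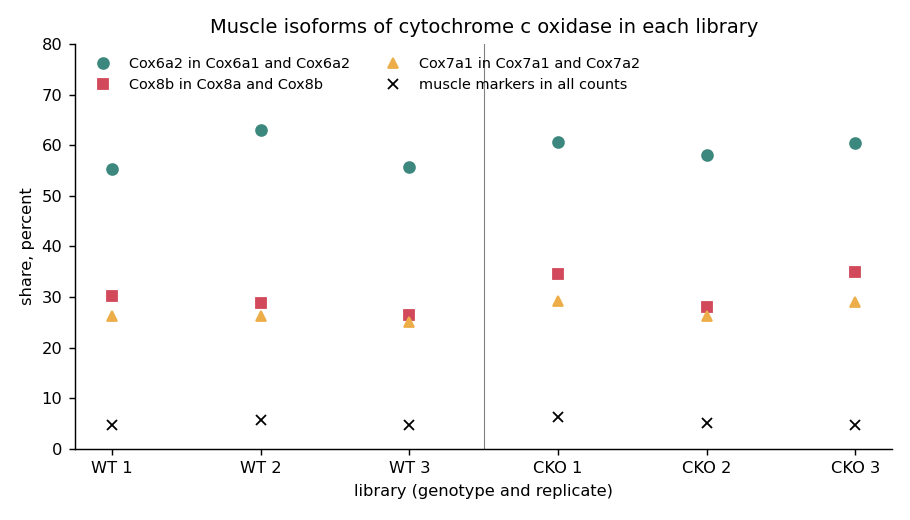
Coloured points are the share of RPKM (vertical axis, percent) that the muscle isoform takes of its pair in each library (horizontal axis, CKO for Hdac3 CKO), and crosses are the share of all counts in the 24 muscle markers. Cox6a2 takes 55.3% to 62.9% of its pair and Cox7a1 25.04% to 29.3%, with the genotypes overlapping, while the muscle markers take 4.62% to 6.29% of all counts.

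Among the other complex IV isoforms Cox4i1, the general form of subunit IV, was at 0.31 ± 0.18, or 0.067 without Hdac3 CKO replicate 1. Cox4i2, a form induced by low oxygen and known from lung, was at 0.44 ± 0.22, or 0.47 without that library. Their mean levels were 136 and 6.67 RPKM. Cox4i2 was highest in Hdac3 CKO replicate 3 with wild type libraries from 4.91 to 6.75 CPM and Hdac3 CKO libraries from 6.04 to 9.79. Cox7a2l, which links complexes III and IV into supercomplexes, was at 0.039 ± 0.14, or -0.099 without Hdac3 CKO replicate 1.

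In complex V the catalytic head makes the ATP. Atp5a1, its alpha subunit, had the highest level per length of all 84 genes, at 271 RPKM. It measured 887.1, 1026 and 977 CPM in wild type and 1489, 1036 and 1011 CPM in Hdac3 CKO, with Hdac3 CKO replicate 1 apart from the other 5 libraries. Its log2 fold change was 0.29 ± 0.18, or 0.076 without that library. Atp5d, the delta subunit of the head, measured 130.2, 134 and 154 CPM in wild type and 259, 156 and 161 CPM in Hdac3 CKO, without overlap, at 0.47 ± 0.20, or 0.18 without Hdac3 CKO replicate 1. Atp5l, a small membrane subunit, was at 0.39 ± 0.18, or 0.22 without that library. Atp5s, also called coupling factor B and not a fixed part of the enzyme, measured 5.24, 5.55 and 5.11 CPM in wild type and 4.50, 3.60 and 3.39 CPM in Hdac3 CKO. The groups did not overlap, and the log2 fold change was -0.47 ± 0.19 with an adjusted p of 0.30 in edgeR, or -0.61 without that library.

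Levels per length across the 84 genes ran from 0 to 271 RPKM, and the gene lengths in the table from 362 to 8086 bases. These lengths include all annotated exons, so a gene with long rare exons is given a lower RPKM than its main transcript would have. Exons of 29 of the 84 genes overlap those of another annotated gene, among them Cox6a2, Cox4i1, Atp5a1, Atp5d, Atp5l and Ndufa4l2, and many subunit genes have processed copies. How the authors counted such reads is not given in the sources used here, so these levels are uncertain.

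None of the other genes of the pathway passed in edgeR. Of 5 oxidative phosphorylation genes with other names 0 of 5 passed, all 5 above 0, with cytochrome c1 (Cyc1) at 0.39 and Usmg5 at 0.17. Of 45 assembly factors tested 0 passed and 34 were above 0, with a median of 0.16. Cox10 and Cox14, both needed to build complex IV, were at 0.40 and 0.44. Of 14 citric acid cycle genes 0 passed and 11 were above 0, with a median of 0.22 and Idh3b, a subunit of isocitrate dehydrogenase, at 0.31. Of 77 mitochondrial ribosomal protein genes 0 passed and 71 were above 0, with a median of 0.19, Mrps18b at 0.53 and Mrps18a at 0.37. Of 11 carriers and transport genes 0 passed and all 11 were above 0, with a median of 0.30, Slc25a5 at 0.37 and Ucp2 at 0.37. The 17 regulators of mitochondrial biogenesis were centred near 0, with 9 above, 8 below and a median of 0.029. Of these Pprc1, a coactivator related to PGC-1, was at 0.37 and the nuclear receptor Esrra at 0.42. At an unadjusted p under 0.05 all tested genes gave 7.79% on the higher and 7.2% on the lower side. The higher and lower counts at that p were 0 and 0 for genes with other names and 1 and 0 for assembly factors. They were 0 and 0 for the citric acid cycle and 8 and 0 for ribosomal proteins. For carriers they were 2 and 0, and for regulators 2 and 1. Hdac3 CKO replicate 1 was the highest library for 71 of the 77 ribosomal protein genes, 35 of 45 assembly factors, 11 of 14 citric acid cycle genes and 5 of 17 regulators. Without that library, a setting chosen after seeing the data, the median of all tested genes was -0.011. That of genes with other names was 0.0024 and that of assembly factors 0.0013. The medians were 0.036 for the citric acid cycle, 0.039 for ribosomal proteins, 0.026 for carriers and -0.029 for regulators. The number above 0 was then 3 of 5, 23 of 45, 10 of 14, 50 of 77, 7 of 11 and 8 of 17. Of the genes named from these lists, Cyc1 was then at 0.12, Usmg5 at 0.0024, Cox10 at 0.23, Cox14 at 0.15, Idh3b at 0.17, Mrps18b at 0.37, Mrps18a at 0.26, Slc25a5 at 0.20, Ucp2 at 0.31, Pprc1 at 0.40 and Esrra at 0.22.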

How the data were processed

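The authors deposited raw read counts per gene and RPKM per gene for 6 mouse limb bone libraries. The submitters' processing notes name mm10, TopHat2 2.1.0, bcl2fastq 1.8.4, and featureCounts from Subread. The annotation release, the strand setting and how reads matching more than 1 place were counted are not stated there and not given in the sources used here. Replicates were numbered in the order of their records.

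Counts were fitted for all 20210 genes left by the edgeR filter with TMM factors and edgeR 4.0.16 (R 4.3.3, robust quasi-likelihood test, no covariate, threshold 0.05 after Benjamini-Hochberg adjustment). A log2 fold change is followed by its standard error. DESeq2 1.42.0, limma 3.58.1, other scalings, filters, a muscle covariate, GC and length offsets and leaving out each library were alternatives. The fitting code was tested on simulated counts with 2-fold and 4-fold changes. There edgeR called 53% and 89% of these, DESeq2 69% and 91%, and limma-voom 51% and 86%. Unchanged genes made up 5.3%, 15.8% and 5.5% of their calls. Smaller changes, such as those of most subunit genes, were not simulated.

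The members, the lists and the motifs were chosen with earlier results of these data known. The text names, in each complex, the 3 genes with the smallest p and the highest RPKM, all of complex II, the tissue isoforms and, of each pathway list, the 2 genes with the smallest p. Ndufv3, Ndufs1, Des, Ucp1, Runx2, Bglap and Bglap2 were named after their values were seen. Some genes that this rule picks are not reported here.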

Additional observations from a re-analysis of the deposited data

How the results depend on the processing

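No paired analysis was possible because the labels give no replicate numbers shared between the genotypes. The number of subunit genes that passed was 0 with all libraries, without any 1 library, and with the other settings except these: Cox6b2 passed, 1 gene, with library totals, with no filter, in DESeq2 and in limma on log2(RPKM + 1) or log2(RPKM + 0.1), and 2 passed, Cox6b2 and Ndufa4l2, with GC and length offsets, a setting chosen after seeing the data. Over all genes 238 passed, and 828 in DESeq2, 131 in limma on log2(RPKM + 1), 20 with the muscle covariate, 411 with GC and length offsets and 23 to 175 when 1 library was left out (23 without wild type replicate 1). The share on the higher side was 59.7%, and 32.6% with library totals, 36.6% and 36.9% on RPKM, and 85.0% with the muscle covariate. With GC and length offsets the log2 fold changes of 78 of the 82 subunit genes were above 0 and 4 below. The fit without these offsets gave 77 and 5. With the muscle covariate the median log2 fold change was 0.020 over all 82 genes, 0.0061 for complex I, 0.033 for II, 0.032 for III, 0.060 for IV and -0.0043 for V, and Cox4i1 (-0.020), Sdhd (-0.016), Cox7a2 (-0.0044), Atp5a1 (-0.017) and Cox7a2l (-0.14) reversed. That covariate is itself highest in Hdac3 CKO replicate 1. Cox7a2l, which lies near 0, also reversed with library totals (-0.15, where the median of all genes was -0.18) and on RPKM (-0.092 and -0.094). When 1 library was left out, the median over all 82 genes ranged from 0.077 (without Hdac3 CKO replicate 1) to 0.39, that of complex I from 0.043 to 0.37, II 0.083 to 0.39, III 0.11 to 0.44, IV 0.10 to 0.43 and V 0.076 to 0.44, Cox7a2l from -0.099 to 0.11, Ndufv3 from -0.99 to 0.30, the difference in muscle share from -0.16 to 0.67 percentage points and that in the Slc25a4 share from -0.98 to 0.39. The cause of these changes was not tested. Cox7b2 and Cox8c had too few counts to be tested, and whether depth or absence sets this was not tested.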
